A study of Mus musculus with 9 samples.

Results

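The AP-1 transcription factors measured here are the 4 genes of the Fos family (Fos, Fosb, Fosl1 and Fosl2) and the 3 genes of the Jun family (Jun, Junb and Jund), 7 of the 56980 mouse genes in the deposited table, each found by its symbol and matched to 1 Ensembl identifier. AP-1 is a pair of leucine zipper proteins: Jun proteins can pair with each other or with a Fos protein, whereas Fos proteins need a Jun partner to bind DNA. Fos, Fosb, Jun and Junb are immediate early genes whose transcription rises quickly after growth factors, cytokines or stress reach MAP kinases, and Jund is transcribed more steadily. In macrophages these factors bind at enhancers of inflammatory, matrix-degrading and growth genes, and the make-up of the pair affects how strongly a target is transcribed.

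RNA came from MH-S, a line of alveolar macrophages from mouse that carries SV40, in 3 groups of 3 libraries. The first group received 20 µg/ml CuO NPs (copper oxide nanoparticles) together with 10 µM TTM, the second 20 µg/ml CuO NPs alone, and the third was the control, all at 24 h. TTM is given in the labels as letters alone; tetrathiomolybdate, a copper chelator, is commonly abbreviated so. No group received TTM alone, so an effect of TTM by itself and an effect of TTM on the nanoparticles cannot be told apart. All groups are the same line, so nothing here shows whether the results hold in other cells. The values are TPM, which correct for transcript length and sum to 1 fixed total per library, so levels of different genes can be set side by side, and the read depth behind them is unknown. Nothing in the labels says that the libraries came from separate cultures, so a p-value here covers no more than the spread among these samples, which may be technical.

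All 8 macrophage markers examined, among them Adgre1, Csf1r and Cd68, reached 1 TPM in every group. Their summed level was 1416 to 1534 TPM with CuO NPs + TTM, 1224 to 1257 TPM with CuO NPs and 2072 to 2117 TPM in controls. Of 8 alveolar macrophage markers 4 reached 1 TPM (Marco, Itgax, Chil3 and Fabp4), while Car4 and Ear2 were listed at 0 in all libraries, Siglecf was at 0 in all but 1, and Pparg averaged 0.0733 TPM with CuO NPs + TTM, 0.0767 TPM with CuO NPs and 0.0767 TPM in controls. The 7 epithelial markers summed to at most 0.16 TPM in any library. The summed fibroblast, endothelial and lymphocyte markers were at most 16.0, 14.3 and 2.73 TPM, each mainly 1 gene (Postn, Vwf and Cd3e). The granulocyte and mast cell markers, mainly S100a8 and S100a9, summed to 63.8 to 70.7 TPM with CuO NPs + TTM, 199 to 220 TPM with CuO NPs and 383 to 400 TPM in controls, and Cpa3 and Fcer1a were at 0. The part of these differences in the results below was not tested, and in RNA from whole cultures fewer cells of a kind and less RNA per cell cannot be told apart.

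The stretches of 250 bases before the RefSeq gene start are shown for the 4 immediate early members, because with CuO NPs the mRNAs of Fos and Jun fell and that of Junb rose (below). They come from RefSeq on GRCm38.p6, an earlier build than the GRCm39 of the deposited values, and the table matched 6 of the 7 members. Each is written 5′ to 3′ along the gene's own strand, and capitals mark every match to TGACG, the half-site of the cAMP response element, or to TGACATCA, the AP-1-like site of the Jun promoter, on either strand.
Fos, chr12:85473640-85473889 (plus strand): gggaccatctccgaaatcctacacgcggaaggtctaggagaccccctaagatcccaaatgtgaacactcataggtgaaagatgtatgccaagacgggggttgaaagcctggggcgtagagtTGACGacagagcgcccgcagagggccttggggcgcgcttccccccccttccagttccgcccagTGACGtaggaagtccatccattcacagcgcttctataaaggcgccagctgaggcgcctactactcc
Fosb, chr7:19310046-19310295 (minus strand): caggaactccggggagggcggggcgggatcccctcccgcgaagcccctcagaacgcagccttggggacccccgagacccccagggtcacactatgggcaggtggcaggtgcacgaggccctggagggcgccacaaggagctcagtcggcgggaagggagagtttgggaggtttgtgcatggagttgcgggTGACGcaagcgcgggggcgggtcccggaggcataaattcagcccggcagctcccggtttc
Jun, chr4:95052223-95052472 (minus strand): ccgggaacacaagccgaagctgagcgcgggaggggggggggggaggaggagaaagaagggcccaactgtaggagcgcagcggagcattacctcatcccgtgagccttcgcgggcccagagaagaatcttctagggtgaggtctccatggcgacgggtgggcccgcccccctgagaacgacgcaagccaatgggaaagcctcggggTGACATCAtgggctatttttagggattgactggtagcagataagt
Junb, chr8:84978749-84978998 (minus strand): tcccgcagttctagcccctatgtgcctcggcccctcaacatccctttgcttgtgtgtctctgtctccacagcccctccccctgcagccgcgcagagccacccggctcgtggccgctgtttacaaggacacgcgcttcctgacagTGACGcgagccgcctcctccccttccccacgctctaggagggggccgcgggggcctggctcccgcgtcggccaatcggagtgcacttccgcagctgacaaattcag

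TGACG occurred in the Fos stretch at positions -129 and -66 from the gene start, in the Fosb stretch at -60 and in the Junb stretch at -106, and in 17.8% of all 32851 stretches of this length. TGACATCA occurred in the Jun stretch at -45 and in 2.93% of all stretches. The complete element TGACGTCA, which contains TGACG, was in none of the 6 members' stretches and in 1.55% of all. The AP-1 site, searched in the wide form TGANTCA with any base at N, was in none of the 6 and in 6.75% of all. The antioxidant response element TGACNNNGC was in none of the 6 and in 10.2% of all. The CArG box, the core of the serum response element, was in none of the 6 and in 1.47% of all. The serum response element of Fos is known to lie further upstream than these windows reach. The heat shock element core GAANNTTC was in the stretches of Jun at -128 and Fosl2 at -244, against 6.69% of all. Of the metal response element, the form TGCACNC was in Junb at -29 (10.4% of all) and the form TGCGCNC in Jun at -179 and in Fosl2 at -84 and -63 (12.5% of all). Both strands were searched throughout. These are matches of letters in short windows and not measured binding sites, and the Jund window from RefSeq held none of the motifs named here.

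How the nanoparticles left AP-1 mRNA at 24 h was asked by setting CuO NPs against control. Fos fell most on the log2 scale, Jun and Fosl2 also fell, and Junb and Jund rose, while Fosb did not pass the test and Fosl1 was too low to be tested. Of the summed TPM of the 7 genes, the Fos family made up 7.20 ± 0.852% with CuO NPs and 17.1 ± 3.51% in controls (SD, n = 3 each), and Junb 41.0 ± 0.789% and 30.4 ± 1.97%. A gene was tested when it had at least 1 TPM in at least 3 of the 9 libraries, which 6 of the 7 members and 12904 genes did, and it was called when limma on log2(TPM + 1) gave a Benjamini-Hochberg adjusted p below 0.05 over all genes tested. Of the 6 tested members 5 were called, where 41.9% of all genes tested were: 2 were higher (11.8% of all genes were) and 3 lower (30.1% of all genes were). The 5 called were also those whose groups did not overlap, where 53.0% of all genes did not. Of 5408 genes called, 1518 were higher, and with median-of-ratios scaling 2534 of 5162 were.

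Fos (ENSMUSG00000021250), the founding partner of Jun, had 10.15, 13.8 and 14.0 TPM in the libraries with CuO NPs, against 63.3, 37.0 and 46.1 TPM in controls. All CuO NP libraries lay well below all controls, and the controls differed more among themselves than the treated libraries did. The means were 12.6 ± 2.16 TPM with CuO NPs and 48.8 ± 13.4 TPM in controls (SD, n = 3 per group, as for all means given), and the log2 fold change was -1.85 (SE 0.291, 95% interval -2.50 to -1.19, limma adjusted p = 8.21e-04). Log2 fold changes are differences of log2(TPM + 1), which shrink those of low genes.

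Fosb (ENSMUSG00000003545), which like Fos is strongly and briefly induced and can also be spliced to a shorter protein without the activation domain, had 1.08, 2.19 and 1.81 TPM with CuO NPs, against 5.63, 1.71 and 3.79 TPM in controls. Control replicate 2 lay within the range of the treated libraries, so the groups overlapped. Its log2 fold change of -0.74 (95% interval -1.53 to 0.06, limma adjusted p = 0.125) missed the threshold, and without control replicate 2 it was -1.09 (adjusted p = 0.0280), within adjusted p of 0.0280 to 0.371 over all alternatives. Fosl2 (ENSMUSG00000029135), which encodes Fra-2, a Fos protein that lacks a strong activation domain, had 11.6, 13.2 and 11.4 TPM with CuO NPs, against 17.15, 14.0 and 13.8 TPM in controls. The groups did not overlap, although the highest treated library lay just below the lowest control. Its log2 fold change was -0.29 (SE 0.1004, limma adjusted p = 0.0434).

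Fosl1 (ENSMUSG00000024912), which encodes Fra-1, was below 1 TPM in all 9 libraries. It had 0.31, 0.71 and 0.62 TPM with CuO NPs and 0.96, 0.65 and 0.41 TPM in controls, and the groups overlapped. With every gene above 0 in any library admitted to the fit, its log2 fold change was -0.11 (limma adjusted p = 0.763). On the other strand its locus overlaps Ccdc85b, which had 4.86 to 5.50 TPM with CuO NPs + TTM, 5 to 5.85 TPM with CuO NPs and 5.16 to 6.55 TPM in controls, and no source says that counting used the strand, so a value this low is uncertain.

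Jun (ENSMUSG00000052684), the best-known partner of Fos and the main nuclear target of the JNK kinases, had 77.75, 86.4 and 82.9 TPM with CuO NPs, against 124, 111 and 116 TPM in controls. Every treated library lay below every control. Its log2 fold change was -0.50 (SE 0.0729, 95% interval -0.67 to -0.34, limma adjusted p = 4.92e-04). Junb (ENSMUSG00000052837), a weaker activator that can oppose Jun on some promoters, went the other way, with 153, 156 and 151 TPM with CuO NPs against 120, 124 and 117 TPM in controls. These were the most closely grouped values of any member, and the groups were well apart. On the log2 scale the change was 0.35 (SE 0.0503, 95% interval 0.24 to 0.46, limma adjusted p = 4.70e-04).

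Jund (ENSMUSG00000071076), the steadily transcribed member, had 119, 116 and 99.4 TPM with CuO NPs, against 84.4, 90.7 and 94.6 TPM in controls. The groups did not overlap, with CuO NPs replicate 3 only just above the highest control. On the log2 scale the change was 0.30 (SE 0.104, limma adjusted p = 0.0402). The calls of Fosl2 and Jund were the least secure of the members: they were lost under 12 and 9 of 18 alternative settings, with their direction kept. Without control replicate 1 Fosl2 had -0.19 and Jund 0.26 (adjusted p = 0.150 and 0.124), and without control replicate 2 they had -0.33 and 0.31 (adjusted p = 0.0530 and 0.0791). Without CuO NPs replicate 1 they had -0.27 and 0.26 (adjusted p = 0.112 and 0.125), so that 3 members were called there and also without control replicate 1. Jund lost its call without control replicate 3 (0.34, adjusted p = 0.0535) and CuO NPs replicate 2 (0.27, adjusted p = 0.106), and Fosl2 without CuO NPs replicate 3 (-0.25, adjusted p = 0.128), CuO NPs + TTM replicate 2 (adjusted p = 0.0550) and CuO NPs + TTM replicate 3 (adjusted p = 0.0538).

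The median of all genes tested was -0.12 in this comparison, so falls of that size are shared by the typical gene. Relative to it Fos had -1.72, Fosb -0.61, Jun -0.38, Fosl2 -0.17, Jund 0.43 and Junb 0.47. With median-of-ratios scaling, which moves the typical gene to 0, Fosl2 had -0.16 and lost its call (limma adjusted p = 0.136). Mitochondrially encoded genes took 15.7 to 16.1% of TPM with CuO NPs and 12.6 to 13.5% in controls. With those genes removed and the rest rescaled, Fosl2 had -0.24 (adjusted p = 0.0875). The other 4 calls were kept under both settings.

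**Figure D1:**
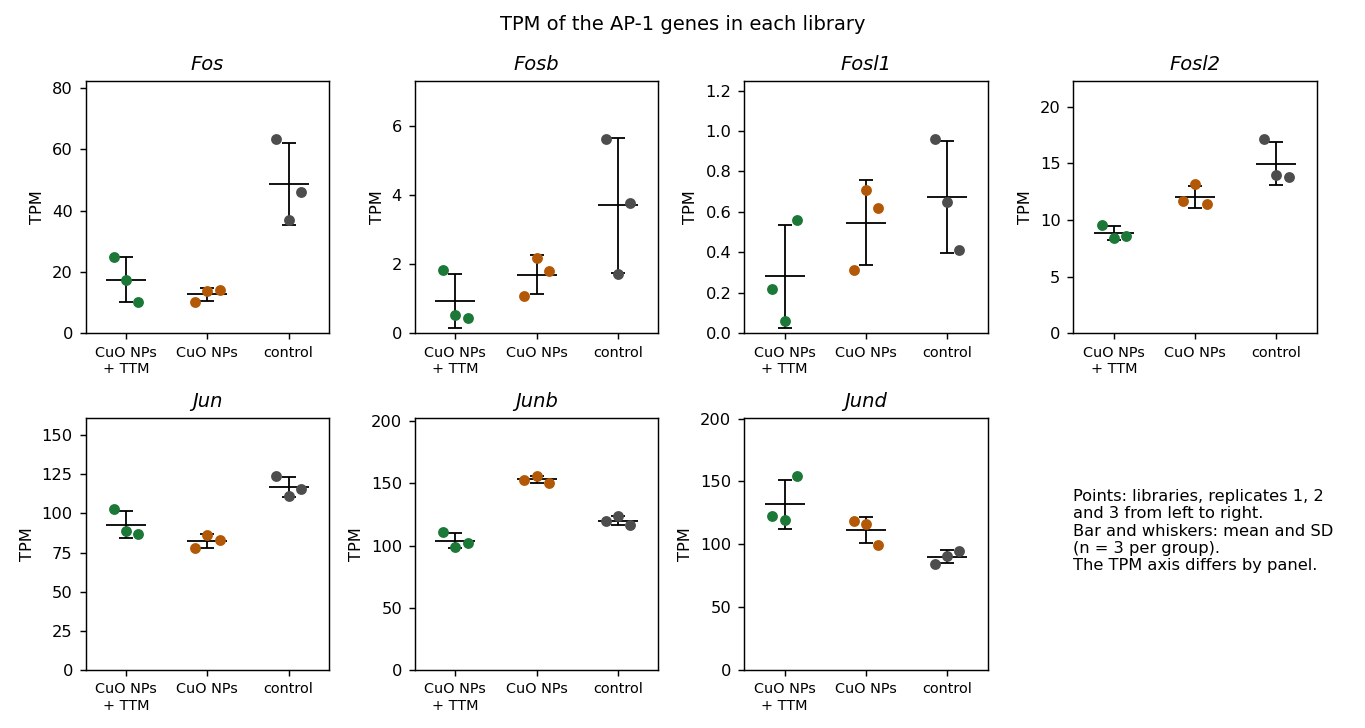
Each panel plots the TPM of 1 AP-1 gene in every library (points), with the mean and SD of each group of 3 (bar and whiskers); panels have their own TPM axis, which starts at 0. Fos in all CuO NP libraries (10.15 to 14.0 TPM) sits below all controls (37.0 to 63.3 TPM), and Junb with CuO NPs (151 to 156 TPM) sits above both other groups.

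What TTM changed when it was given beside the nanoparticles was asked by setting CuO NPs + TTM against CuO NPs. Junb fell to below its control level and Fosl2 fell further from control, while for Fos, Fosb, Jun and Jund the test did not separate the groups. Of the 6 tested members 2 were called, both lower, where 53.1% of all genes tested were called, 34.6% higher and 18.5% lower. Of 6853 genes called, 4469 were higher, and with median-of-ratios scaling 3422 of 6931 were. No member was called higher by limma, and at an unadjusted p below 0.05 there were 2, Jun and Jund. This comparison and the one above share the CuO NP libraries, so their changes are given side by side and not as independent of each other.

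Junb had 111, 99.0 and 102 TPM with CuO NPs + TTM, against 153, 156 and 151 TPM with CuO NPs. The groups were far apart, and all TTM libraries also lay below all controls (117 to 124 TPM). Its log2 fold change was -0.56 (SE 0.0503, 95% interval -0.67 to -0.44, limma adjusted p = 2.38e-05), the firmest call among the members, and it ranged from -0.68 to -0.52 over all alternatives. The annotated Junb locus overlaps the end of Prdx2, an abundant peroxiredoxin gene on the other strand, by 351 bases in GENCODE vM21. Prdx2 had 94.25 to 102 TPM with CuO NPs + TTM, 88.9 to 93.5 TPM with CuO NPs and 83.3 to 87.9 TPM in controls. That order is not the order of Junb, and the part of Prdx2 reads in the Junb values was not tested.

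Fosl2 had 9.53, 8.40 and 8.60 TPM with CuO NPs + TTM, against 11.6, 13.2 and 11.4 TPM with CuO NPs. Every TTM library lay below every library of both other groups. The log2 fold change was -0.41 (SE 0.1004, 95% interval -0.63 to -0.18, limma adjusted p = 0.00713). The mean of Fosl2, like that of Fosb, was lowest with both agents, intermediate with CuO NPs alone, and highest in controls.

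Fos had 24.9, 17.4 and 10.1 TPM with CuO NPs + TTM, against 10.15, 13.8 and 14.0 TPM with CuO NPs. The TTM libraries were spread on both sides of the CuO NP libraries, and all lay below the controls. The log2 fold change was 0.36 with a 95% interval of -0.29 to 1.02 (limma adjusted p = 0.318). The value depended on single libraries: without CuO NPs + TTM replicate 3, the lowest, it was 0.69 and passed the test (adjusted p = 0.0397), and without CuO NPs + TTM replicate 1 it was 0.08, within adjusted p of 0.0397 to 0.83 over all alternatives.

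Fosb had 1.82, 0.51 and 0.45 TPM with CuO NPs + TTM, against 1.08, 2.19 and 1.81 TPM with CuO NPs. Replicates 2 and 3 of the TTM group lay below all CuO NP libraries, but replicate 1 lay among the CuO NP libraries. Its log2 fold change of -0.53 had a 95% interval of -1.33 to 0.26 (limma adjusted p = 0.233). Fosl1 had 0.22, 0.06 and 0.56 TPM with CuO NPs + TTM, all below 1 TPM, and overlapped both other groups. With every gene above 0 in any library admitted to the fit, its log2 fold change was -0.28 against CuO NPs and -0.39 against control (limma adjusted p = 0.366 and 0.183).

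Jun had 103, 88.8 and 86.9 TPM with CuO NPs + TTM, against 77.75, 86.4 and 82.9 TPM with CuO NPs. The groups did not overlap, yet the lowest TTM library and the highest CuO NP library were almost level. The log2 fold change was 0.17 with a 95% interval of 0.00 to 0.33 (limma adjusted p = 0.0796). Jund had 122, 119 and 154 TPM with CuO NPs + TTM, against 119, 116 and 99.4 TPM with CuO NPs. The TTM libraries were all the higher, replicate 3 by far and the others by little. The log2 fold change was 0.24 with a 95% interval of 0.00 to 0.47 (limma adjusted p = 0.0822). Of the 6 tested members, 4 had groups that did not overlap, where 59.4% of all genes tested did not. The median of all genes was 0.12 here, and relative to it Jun had 0.05 and Jund 0.12.

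The comparison of CuO NPs + TTM with control asked how far AP-1 mRNA stood from untreated cells when both agents were present. All 6 tested members were called, 5 lower and only Jund higher, where 55.5% of all genes tested were called (28.2% lower and 27.3% higher). Of the 6, 5 had groups that did not overlap, where 63.1% of all genes did not, and Fosb was the exception. The median of all genes was 0.00. The number called was 5 or 6 under all 18 alternatives.

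The 3 tested genes of the Fos family were lower than in controls. Fos averaged 17.4 ± 7.42 TPM with CuO NPs + TTM and 48.8 ± 13.4 TPM in controls, and the fitted difference was -1.48 on the log2 scale (SE 0.291, limma adjusted p = 0.00187). Fosb averaged 0.927 ± 0.774 TPM with CuO NPs + TTM and 3.71 ± 1.96 TPM in controls, and the fitted difference was -1.27 on the log2 scale (SE 0.355, adjusted p = 0.0127), or -1.99 on the scale of log2(TPM + 0.1). The highest Fosb library with TTM lay above the lowest control. Fosl2 averaged 8.84 ± 0.603 TPM with CuO NPs + TTM and 15.0 ± 1.87 TPM in controls, and the fitted difference was -0.70 on the log2 scale (SE 0.1004, adjusted p = 2.87e-04).

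The Jun family split. Jun averaged 92.8 ± 8.60 TPM with CuO NPs + TTM and 117 ± 6.39 TPM in controls, and the fitted difference was -0.34 on the log2 scale (SE 0.0729, limma adjusted p = 0.00337). Junb averaged 104 ± 6.14 TPM with CuO NPs + TTM and 120.1 ± 3.52 TPM in controls, and the fitted difference was -0.21 on the log2 scale (SE 0.0503, adjusted p = 0.00637), so its direction from control was the opposite of that with CuO NPs alone. Jund averaged 132 ± 19.5 TPM with CuO NPs + TTM and 89.9 ± 5.12 TPM in controls, and the fitted difference was 0.54 on the log2 scale (SE 0.104, adjusted p = 0.00167). Jun and Jund each overlap an antisense gene in GENCODE vM21. Junos, opposite Jun, had 1.51 to 3.52 TPM with CuO NPs + TTM, 1.24 to 2.23 TPM with CuO NPs and 1.97 to 2.70 TPM in controls. Gm11175, opposite Jund, was listed at 0 in all libraries of CuO NPs and control and reached at most 2.51 TPM with CuO NPs + TTM. Both antisense genes were far lower than the gene they overlap, and their part in its values was not tested.

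**Figure D2:**
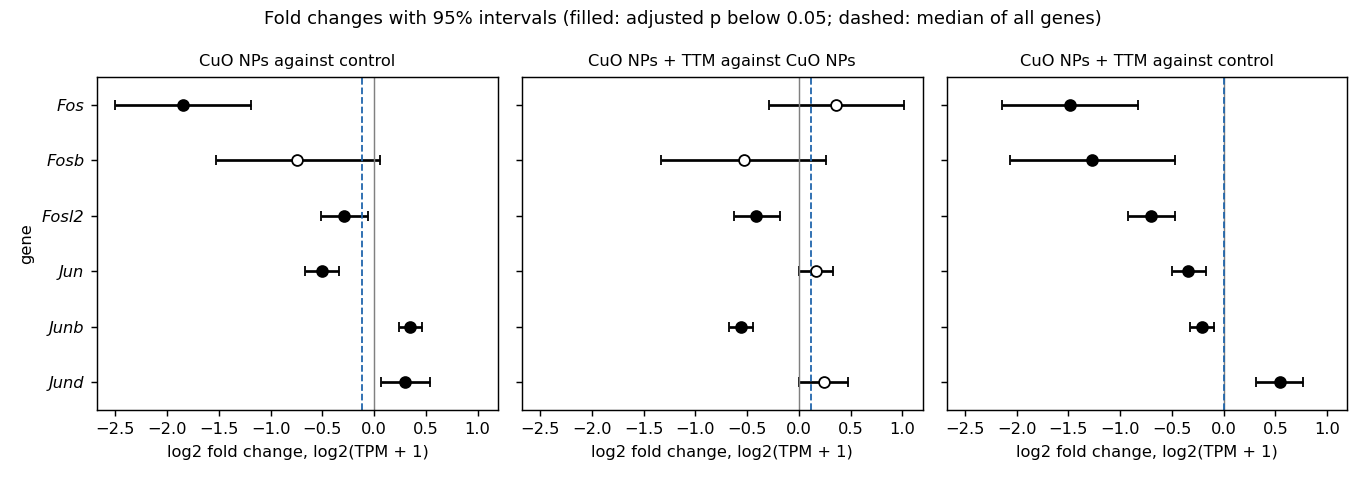
Log2 fold changes of the 6 tested AP-1 genes on the scale of log2(TPM + 1), with 95% intervals, 1 panel per comparison; filled points passed the test and the dashed line is the median of all genes. Junb is right of 0 for CuO NPs against control (0.35) and left of it once TTM is added (-0.56 against CuO NPs, -0.21 against control), while Fos (-1.85 and -1.48) and Jund (0.30 and 0.54) keep their side of control.

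Since TPM corrects for length, levels of different members can be ranked, and the order changed with treatment. With CuO NPs + TTM the order was Jund, Junb, Jun, Fos, Fosl2, Fosb and Fosl1, with Junb and Jun overlapping, as did Fosb and Fosl1. With CuO NPs it was Junb, Jund, Jun, Fos, Fosl2, Fosb and Fosl1, and only Fos and Fosl2 overlapped (10.15 to 14.0 and 11.4 to 13.2 TPM). In controls it was Junb, Jun, Jund, Fos, Fosl2, Fosb and Fosl1, and only Junb and Jun overlapped (117 to 124 and 111 to 124 TPM). By mean TPM the 3 Jun genes lay between the 88.0th and the 93.9th percentile of tested genes in every group, whereas Fos was at the 53.4th percentile with CuO NPs + TTM, the 48.4th with CuO NPs and the 78.4th in controls.

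The summed TPM of the 7 genes was 356 ± 20.3 with CuO NPs + TTM, 374 ± 14.0 with CuO NPs and 395 ± 18.4 in controls, ranges that overlapped between neighbouring groups. The shares of the members differed more. The Fos family took 7.71 ± 2.20% of the sum with CuO NPs + TTM, 7.20 ± 0.852% with CuO NPs and 17.1 ± 3.51% in controls. The drop was mainly that of Fos itself, with 4.89 ± 1.98%, 3.38 ± 0.594% and 12.3 ± 2.78% in the same 3 groups. Junb took 29.2 ± 0.921% with CuO NPs + TTM, 41.0 ± 0.789% with CuO NPs and 30.4 ± 1.97% in controls. Jund took 37.0 ± 4.97%, 29.8 ± 2.16% and 22.8 ± 2.14% in that order of groups. These shares describe mRNA, not protein or bound pairs, and no test was run on them.

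Ratios within a library, which do not depend on scaling, set Junb and Jund beside Jun. The TPM of Junb over Jun was 1.08, 1.11 and 1.18 with CuO NPs + TTM, 1.97, 1.81 and 1.82 with CuO NPs and 0.965, 1.11 and 1.01 in controls. Only the CuO NP libraries stood apart. The TPM of Jund over Jun was 1.19, 1.34 and 1.78 with CuO NPs + TTM, 1.53, 1.35 and 1.20 with CuO NPs and 0.681, 0.814 and 0.816 in controls, so both exposed groups were above the controls and overlapped each other. The TPM of Jun over Fos was 4.12, 5.11 and 8.64 with CuO NPs + TTM, 7.66, 6.27 and 5.93 with CuO NPs and 1.96, 3.01 and 2.51 in controls, again with both exposed groups above all controls.

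**Figure D3:**
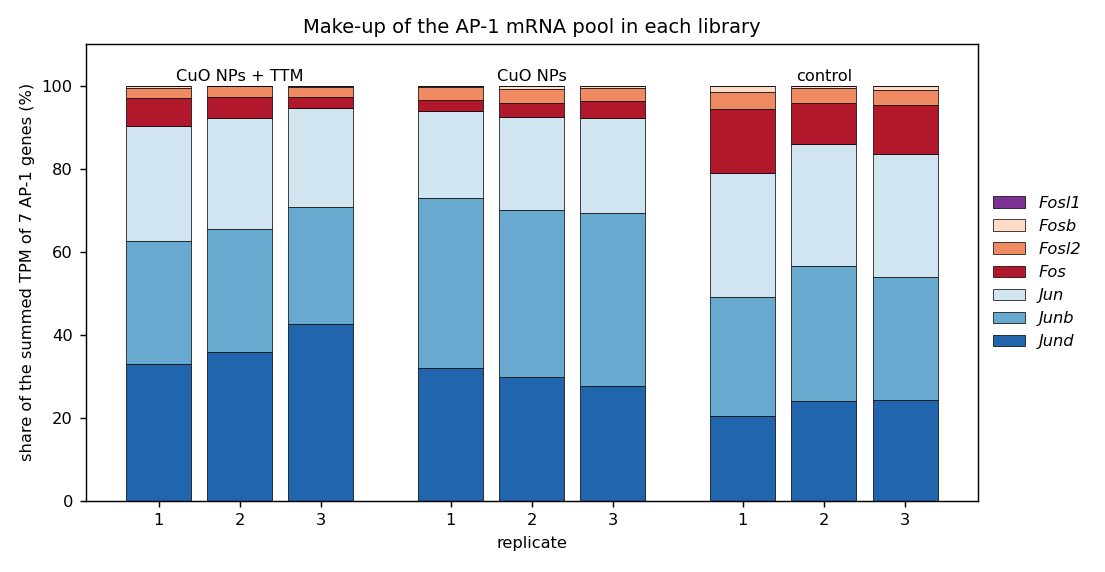
Stacked bars give each AP-1 gene's share (%) of the summed TPM of the 7 genes, 1 bar per library, in the groups CuO NPs + TTM, CuO NPs and control. The Fos share (dark red) is thick in the controls (mean 12.3%) and thin in both exposed groups (4.89 and 3.38%), the Junb share is widest with CuO NPs (41.0%), and the Jund share is widest with CuO NPs + TTM (37.0%).

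The other leucine zipper genes whose proteins can pair with or displace AP-1 were taken from a list of 13, of which 11 were tested. With CuO NPs 6 rose and 4 fell against control, where 11.8% of all genes rose and 30.1% fell; their median log2 fold change was 0.29, or 0.41 above the median of all genes. The small Maf genes, which lack an activation domain, rose: Maff averaged 22.8 ± 0.412 TPM with CuO NPs and 11.7 ± 0.163 TPM in controls (log2 fold change 0.90, limma adjusted p = 1.18e-05), and Mafk 38.8 ± 2.17 TPM and 21.9 ± 2.02 TPM (0.80). Maf, which carries one, fell: it averaged 1.64 ± 0.0709 TPM with CuO NPs and 10.2 ± 0.333 TPM in controls (-2.09).

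With TTM beside the nanoparticles, 3 of the 11 partners rose and 3 fell against CuO NPs alone (34.6% and 18.5% of all genes did). Those that fell were Atf3, a stress-induced repressor, with 94.6 ± 7.83 TPM with CuO NPs + TTM against 142 ± 10.7 TPM with CuO NPs (-0.58, limma adjusted p = 2.66e-04), Maff (-0.47) and Mafk (-0.44). Atf3 had risen with CuO NPs against control (0.59) and was not called with CuO NPs + TTM against control (0.01). Maff (0.44) and Mafk (0.36) stayed higher than in controls. Maf was among those that rose (0.58), and remained below control (-1.51). Against control, 4 rose and 3 fell with CuO NPs + TTM (27.3% and 28.2% of all genes did). Atf4, the effector of the integrated stress response, averaged 673 ± 26.2 TPM with CuO NPs + TTM and 372 ± 4.97 TPM in controls (0.85). Jdp2, a repressor that pairs with Jun, averaged 49.2 ± 1.46 TPM and 70.7 ± 1.05 TPM in the same groups (-0.52). With CuO NPs alone Atf4 was already higher than in controls (0.55) and Jdp2 already lower (-0.39).

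The MAP kinase phosphatases are a list of 12 with 10 tested. Many of them, but not all, switch off the kinases that activate AP-1, and some are themselves induced by that pathway. With CuO NPs 5 fell and 1 rose against control, where 30.1% of all genes tested fell and 11.8% rose (median -0.45, and -0.32 after subtracting the median of all genes). Dusp6, which inactivates ERK, averaged 4.00 ± 0.223 TPM with CuO NPs and 17.6 ± 2.05 TPM in controls (-1.89, limma adjusted p = 1.52e-06). Dusp7, also an ERK phosphatase, had -1.03, Dusp3 -0.68 and Dusp22 -0.67.

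With CuO NPs + TTM against CuO NPs, 5 of these phosphatases fell and 3 rose, where 18.5% of all genes fell and 34.6% rose. Dusp6 fell again, to 1.96 ± 0.236 TPM (-0.76), as did Dusp2 (-0.51) and Dusp1 (-0.46, with 91.7 ± 21.9 TPM against 124 ± 8.32 TPM), while Dusp7 rose (0.46). Dusp2, with 0.823 ± 0.127 TPM with CuO NPs + TTM and 1.61 ± 0.469 TPM with CuO NPs, was near the filter of 1 TPM. The call of Dusp2 was lost with no filter and without CuO NPs replicate 2, CuO NPs + TTM replicate 1 or CuO NPs + TTM replicate 2. It was also lost without replicate 1 of control and of CuO NPs + TTM. The count of 8 dropped to 5 with no filter on low values and without CuO NPs replicate 2, CuO NPs replicate 3, CuO NPs + TTM replicate 2 or CuO NPs + TTM replicate 3, and the call of Dusp1 was lost in all of these 5. Against control, 7 were lower and 2 higher with CuO NPs + TTM (median -0.50), where 28.2% of all genes were lower and 27.3% higher: Dusp6 had -2.65, Dusp1 -1.11, Dusp3 -0.98 and Dusp10, a JNK and p38 phosphatase, 0.88.

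The MAP kinase cascades upstream were a list of 18, all tested. With CuO NPs 6 fell and 1 rose against control (median -0.17, and -0.05 after subtracting the median of all genes). The share that fell was near that of all genes, of which 30.1% fell and 11.8% rose. Map3k1 (MEKK1), which feeds JNK, averaged 6.72 ± 1.93 TPM with CuO NPs and 14.0 ± 0.927 TPM in controls (-0.98, limma adjusted p = 0.00194), and Map3k5 (ASK1), a kinase activated by oxidative stress, 2.59 ± 0.159 TPM and 4.66 ± 0.440 TPM (-0.65). The JNK kinase Map2k4 had -0.59, and Mapk8, which encodes JNK1, had -0.42. With CuO NPs + TTM against CuO NPs, 7 rose and 5 fell, where 34.6% of all genes rose and 18.5% fell. Map3k1 rose to 24.97 ± 4.89 TPM (1.76, adjusted p = 4.61e-05) and Mapk3, which encodes ERK1, to 104 ± 4.17 TPM against 63.3 ± 0.946 TPM (0.70), while Map3k5 (-0.74) and the p38 kinase Map2k3 (-0.61) fell. Against control, 4 were higher and 6 lower with CuO NPs + TTM (27.3% and 28.2% of all genes were), led by Map3k5 (-1.39), Map2k3 (-0.96), Map2k4 (-0.93) and Map3k1 (0.78).

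Of 11 factors that bind the promoters of Fos and Jun genes or act through such factors, 4 fell and 1 rose with CuO NPs against control. Those that fell were Mef2c (-1.15, 5.08 ± 1.68 TPM with CuO NPs and 12.2 ± 1.18 TPM in controls), Mrtfa (-0.59), Mef2a (-0.58) and Srf (-0.48), the serum response factor. Hsf1 (0.22), the heat shock factor, rose. The median of the 11 was -0.15, and -0.02 after subtracting the median of all genes. These shares were near those of all genes, of which 30.1% fell and 11.8% rose. With CuO NPs + TTM against CuO NPs, 3 rose, namely Mef2c (1.18, limma adjusted p = 5.32e-04), the Srf partner Elk4 (0.59) and Elk3 (0.29), and limma called none lower, against 2 at an unadjusted p below 0.05, where 34.6% of all genes rose and 18.5% fell. Against control, Elk4 was higher (0.51) and Mef2a (-0.75), Srf (-0.41) and Mrtfa (-0.41) lower with CuO NPs + TTM, where 27.3% of all genes were higher and 28.2% lower. The call of Elk3 was lost in 10 of 18 alternatives, median-of-ratios scaling among them, and Hsf1 was named after its values were seen.

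Fos and Jun mRNAs carry AU-rich elements, and 6 genes for proteins that bind such elements were all tested. With CuO NPs 4 fell and 2 rose, where 30.1% of all genes fell and 11.8% rose: Zfp36l2 (-0.75), Hnrnpd (-0.58), Zfp36, which encodes the decay factor tristetraprolin (-0.57), and Zfp36l1 (-0.40) fell, and Khsrp (0.38) and Elavl1 (0.32), named here after their values were seen, rose. The call of Zfp36l1 was lost without control replicate 1 or 3 or CuO NPs replicate 1 or 3, and that of Elavl1 without control replicate 2 or 3 or CuO NPs replicate 2. With CuO NPs + TTM against CuO NPs, Zfp36 rose to 36.2 ± 0.799 TPM, against 16.1 ± 0.411 TPM with CuO NPs (1.12, limma adjusted p = 1.12e-06), and Elavl1 (-0.53), Hnrnpd (-0.49) and Zfp36l2 (-0.25) fell, the last losing its call without CuO NPs replicate 2 or CuO NPs + TTM replicate 2. Of all genes 34.6% rose and 18.5% fell there. Against control, Hnrnpd (-1.06) and Zfp36l2 were lower and Zfp36 (0.55) and Khsrp (0.33) higher with CuO NPs + TTM, where 28.2% of all genes were lower and 27.3% higher. Of 5 genes for the turnover of Jun and Fos proteins, all tested, limma called none in any comparison, with 1 lower at an unadjusted p below 0.05 for CuO NPs against control and none in the other comparisons. Without CuO NPs replicate 2 limma called 2 for CuO NPs against control and 1 for CuO NPs + TTM against control. Cop1, the most abundant, averaged 60.5 ± 2.60 TPM with CuO NPs + TTM, 58.6 ± 5.37 TPM with CuO NPs and 66.1 ± 5.62 TPM in controls.

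Of 24 genes described in the literature as AP-1 targets, 19 were tested. With CuO NPs 12 fell and 4 rose against control, where 30.1% of all genes fell and 11.8% rose, with a median of -0.60, and -0.48 after subtracting the median of all genes. Spp1 (osteopontin) averaged 1794 ± 92.1 TPM with CuO NPs and 11022 ± 183 TPM in controls (-2.62, limma adjusted p = 8.12e-10), the chemokine Ccl2 166 ± 14.8 TPM and 856 ± 43.5 TPM (-2.36), and the collagenase Mmp13 1.59 ± 0.216 TPM and 12.0 ± 0.179 TPM (-2.34). Hmox1, which is mainly known as an NRF2 target, rose (2.32). With CuO NPs + TTM against CuO NPs, 13 fell and 5 rose, where 18.5% of all genes fell and 34.6% rose (median -0.92, and -1.03 after subtracting the median of all genes). Il1b averaged 0.620 ± 0.227 TPM with CuO NPs + TTM and 8.42 ± 1.23 TPM with CuO NPs (-2.54), Ccl2 56.0 ± 18.1 TPM and 166 ± 14.8 TPM (-1.60), and Plaur, the urokinase receptor, 3.26 ± 1.00 TPM and 10.6 ± 0.867 TPM (-1.47), while Spp1 rose to 5669 ± 201 TPM (1.66). Against control, 14 were lower and 4 higher with CuO NPs + TTM, where 28.2% of all genes were lower and 27.3% higher (median -1.21): Ccl2 had -3.96, Il1b -3.55, Plaur -2.34 and Mmp13 -2.28. Itgax, 1 of the 24, is also in the alveolar macrophage marker list. Many of these genes also answer to other factors, and nothing here measures AP-1 binding to them. All 8 macrophage markers fell with CuO NPs as well, and their part in these counts was not tested.

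**Figure D4:**
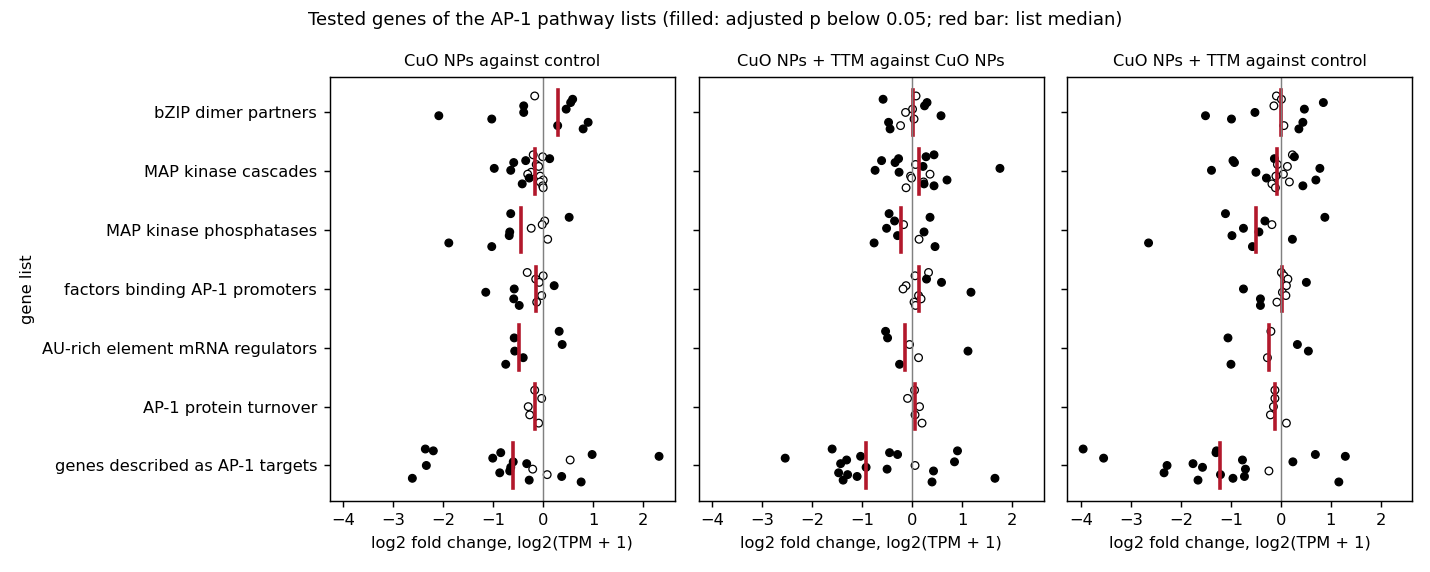
Each point is the log2 fold change, on the scale of log2(TPM + 1), of 1 tested gene from 7 lists around AP-1, with 1 panel per comparison; filled points passed the test and red bars are list medians. The target list lies furthest left in each panel (medians -0.60, -0.92 and -1.21), and no gene of the turnover list passed the test.

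Among tested genes with a symbol and a mean of at least 5 TPM, the closest to a member over the 9 libraries were found by the root mean square difference of log2(TPM + 1), each gene set to its own control mean. For Junb these were Pea15a (0.0358) and Trappc13 (0.0473), for Fosl2 Hacd3 (0.0373) and Zdhhc5 (0.0612), and for Jun Arhgef7 (0.0503). Jund was followed less closely, by Yif1b (0.0814) and Zfp691 (0.0877), and Fos and Fosb least, by Msr1 (0.349) and Mertk (0.351) and by Dusp1 (0.295) and Celf2 (0.329). Pea15a, for example, averaged 38.2 ± 1.65 TPM with CuO NPs + TTM, 55.3 ± 0.444 TPM with CuO NPs and 43.5 ± 2.03 TPM in controls, the order of Junb. The difference is taken over single libraries, so it also grows with the spread of a member among replicates. With CuO NPs + TTM the SD was 42.5% of the mean for Fos, 83.55% for Fosb and 5.90% for Junb. Mertk is also in the macrophage marker list and Dusp1 in the list of MAP kinase phosphatases.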

How the data were processed

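RNA was sequenced from 9 MH-S libraries, 3 per group, grouped by their treatment label. The authors deposited TPM values for 56980 Ensembl gene identifiers, with library sums of 999999 to 1000001 and 19710 to 20863 genes above 0. The tools fastp, HISAT2, RSEM and DESeq2 and the build GRCm39 are named, per the submitters' processing notes, without versions or roles. Whether strand was used in counting is not given in the sources used here, and the read depth is unknown, so no counting interval is given. RSEM shares out reads that map to several genes, so genes with near-identical copies would be uncertain.

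Symbols were matched for 52073 identifiers. Genes with at least 1 TPM in at least 3 of 9 libraries were tested (12904) with limma 3.58.1 in R 4.3.3 on log2(TPM + 1), with 1 mean per group over all 9 libraries, an intensity trend, two-sided tests and Benjamini-Hochberg adjustment over all tested genes at 0.05, and the procedure was tested on simulated data. Tables and figures were made with Python 3.11.15, numpy 2.4.6, pandas 2.3.3 and matplotlib 3.10.9. All 7 members are named. From each of the 7 lists around AP-1, up to 4 called genes with the largest change per comparison are named, or the most abundant where none was called, and 2 genes of nearest pattern per tested member; some genes that this rule names are not reported here. Marker lists cover 7 cell types or groups. Members, lists and tests were chosen with earlier results of these data known. Alternatives were 17 planned settings and 1 chosen after seeing the data, which leaves out replicate 1 of control and of CuO NPs + TTM. Promoters are RefSeq's on GRCm38.p6 and gene overlaps GENCODE vM21's. Gene coordinates on GRCm39 are not used here.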

Additional observations from a re-analysis of the deposited data

How the results depend on the processing

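Among the 3 comparisons, the number of AP-1 genes called was least stable for CuO NPs against control. It was 5 as reported, and 3 with no filter on low values or with replicate number as a block. It was also 3 without replicate 1 of control and of CuO NPs + TTM, and 3 to 5 when 1 library at a time was left out. The genes that left were Fosl2 and Jund. Fos, Jun and Junb kept their calls in all 18 alternatives, with ranges of -2.03 to -1.65, -0.54 to -0.37 and 0.33 to 0.48. Fosl2 also lost its call when only the groups compared were fitted (adjusted p = 0.0613) and Jund without the intensity trend (adjusted p = 0.0645). For CuO NPs + TTM against CuO NPs, 2 or 3 members were called, and Fosb passed the test without replicate 1 of control and of CuO NPs + TTM (-0.84, limma adjusted p = 0.0388, within 0.0388 to 0.482 over all alternatives). That setting was chosen after seeing the data, and it leaves out the CuO NPs + TTM library with the highest Fosb (1.82 TPM). For CuO NPs + TTM against control, 5 or 6 members were called. None of the 6 tested members changed direction under any of these settings, and Fosl1 was fitted only with no filter. The cause of the lost calls was not tested.

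Counts of all genes called were 4367 to 5442 for CuO NPs against control, and with TTM added 5911 to 6931 against CuO NPs and 6028 to 7276 against control. In the protein turnover list, 1 gene was called for CuO NPs against control with a filter at 5 TPM, and 1 for CuO NPs + TTM against control with median-of-ratios scaling. Correlations of same-numbered libraries' deviations from their group means lay between -0.127 and 0.00969. Those of different-numbered libraries lay between -0.0367 and 0.0986. The labels state no pairing, and correlations over all tested genes would not show a pairing that touches few genes. With the replicate block 4925, 6469 and 6798 genes were called in the comparisons as ordered above. Values below 1 TPM, as of Fosl1 and part of Fosb, have no known read depth behind them.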

Other observations

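Several members were highest in the same library of their group, though not the same members in each group. In the CuO NPs + TTM group, replicate 1 was the highest for 5 of the 7 members (Fos, Fosb, Fosl2, Jun and Junb) and for Dusp1, the MAP kinase phosphatase that is itself an immediate early gene. In the CuO NPs group, replicate 2 was the highest for 5 of the 7 (Fosb, Fosl1, Fosl2, Jun and Junb), while Fos and Dusp1 were highest in replicate 3. In the control group, replicate 1 was the highest for 5 of the 7 (Fos, Fosb, Fosl1, Fosl2 and Jun) and for Dusp1, while Junb was highest in replicate 2. The highest library stood over the lowest by a ratio of 2.47 with CuO NPs + TTM, 1.38 with CuO NPs and 1.71 in controls for Fos. For Fosb the ratios were 4.04, 2.03 and 3.29 in the same groups, and for Junb 1.12, 1.04 and 1.06. These libraries were noticed after their values were seen, no test was run on them, and whether handling before lysis differed between libraries is not given in the sources used here. The share of all genes highest in each library was not computed. Whether these counts reflect a shift of a whole library or a trait of these members was therefore not tested.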
